A study of Mus musculus with 141 samples.

Results

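A set of 6 noncoding RNAs with many reads in sorted mouse lung cells is described here: *Malat1*, *Neat1*, *Yam1*, *Rn7sk*, *Gm26870* and *Gm26917*. They were taken by name from the 17136 genes of the count table and followed through all cells. They were chosen by their high read counts in these same cells, so the levels are a description with no test. The cells came from the lungs of 1 *ACID;R26tdTomato* mouse, 4 months old, of strain 129SV in the labels and 129S6/SvEvTac in the study's methods, and were sorted as CD31- CD45- E-cadherin+ tdTomato+. In these mice Cre is expressed from the *Aqp5* locus and turns on tdTomato for good, so a sorted cell need not express *Aqp5* any more. There was 1 condition, and single cells were captured on a Fluidigm C1 chip with numbered columns and rows. Because the mouse is the only sample, cells are not replicates and no test or p-value is given. Levels are CPM, the reads of an RNA scaled to a total of 1000000 reads. The total is that of a single cell or of the summed reads of a class. Intervals in parentheses are exact Poisson 95% intervals that cover the counting error of reads only. PCR copies are counted as reads, so the intervals cover neither the counting of molecules nor the spread between cells.

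*Malat1* and *Neat1* are long RNAs that stay in the nucleus. *Malat1* gathers in nuclear speckles, bodies rich in splicing factors, and *Neat1* is the scaffold of paraspeckles, bodies built around proteins such as SFPQ and NONO. *Rn7sk* is the 7SK RNA, a small RNA polymerase III transcript that holds the elongation kinase P-TEFb inactive together with LARP7, MEPCE and HEXIM1. *Yam1* is known as a YY1-associated long noncoding RNA of muscle cells. *Gm26870* and *Gm26917* are gene models without an assigned function. In single-cell work the share of mitochondrial reads and the number of detected genes are commonly used as measures of cell quality.

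Cells with at least 5000 CPM of *Ager*, a receptor of type 1 alveolar cells, formed the type 1 class (64 cells), and cells with at least 8000 CPM of *Sftpc*, the surfactant protein C gene of type 2 cells, formed the type 2 class (27 cells). The other 50 cells are called the rest, and 0 cells met both limits. The lowest *Ager* level inside its limit was 5678 CPM and the highest outside was 4696 CPM, and for *Sftpc* these values were 8718 and 7774 CPM. The labels name every cell a type 1 alveolar cell, while 64 reached the *Ager* limit. All 9 other type 1 markers were highest in the type 1 class and all 7 other type 2 markers in the type 2 class. The 6 ciliated, 5 club, 5 basal and 5 fibroblast markers were highest in the rest, although the summed ciliated markers had a median of 1232 CPM in the type 1 class and 37.1 CPM in the rest. The 4 endothelial markers had a median of 0 in every class, and the summed macrophage markers, of which 3 of 6 were counted, had a median of 7541 CPM in the type 2 class, where *Lyz2* is also expressed. The rest was split in order at 1000 CPM of summed ciliated markers, 20000 CPM of *Scgb1a1* and 500 CPM of summed basal markers. This gave 21 cells high in ciliated markers, then 13 in *Scgb1a1*, then 9 in basal markers, and 7 below all limits. A cell past more than 1 limit stands in the first of its groups. Summed club markers reached 395850 CPM in the ciliated group, and 15.4% of the *Scgb1a1* group had over 1000 CPM of summed basal markers. The summed fibroblast markers ran from 0 to 5774 CPM in these 7 cells, with a median of 1120 CPM. The median share of reads on the 37 mitochondrial genes was 11.9% in the type 1 class, 18.2% in the type 2 class and 9.96% in the rest. The median number of genes with a read was 2706, 2384 and 3015 in the same order, and total reads ran from 91402 to 2170760 per cell. Fewer cells and less RNA per cell cannot be told apart in a summed level, so cell medians stand beside the sums.

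The 6 RNAs fell into a broad and a concentrated set. *Yam1* (20296 CPM over all cells) and *Malat1* (19679 CPM) ranked 4 and 5 of all genes by reads and had reads in every cell. *Neat1* (1519 CPM) had reads in 93.6% of cells. *Rn7sk*, *Gm26870* and *Gm26917* ranked 120, 195 and 301 by reads, and had reads in 53.9%, 60.99% and 87.2% of cells. To reach 50% of its reads, *Malat1* needed 29 cells, *Yam1* 31 and *Neat1* 16. *Rn7sk* needed 1 cell, and *Gm26870* and *Gm26917* needed 2 each.

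**Figure D1:**
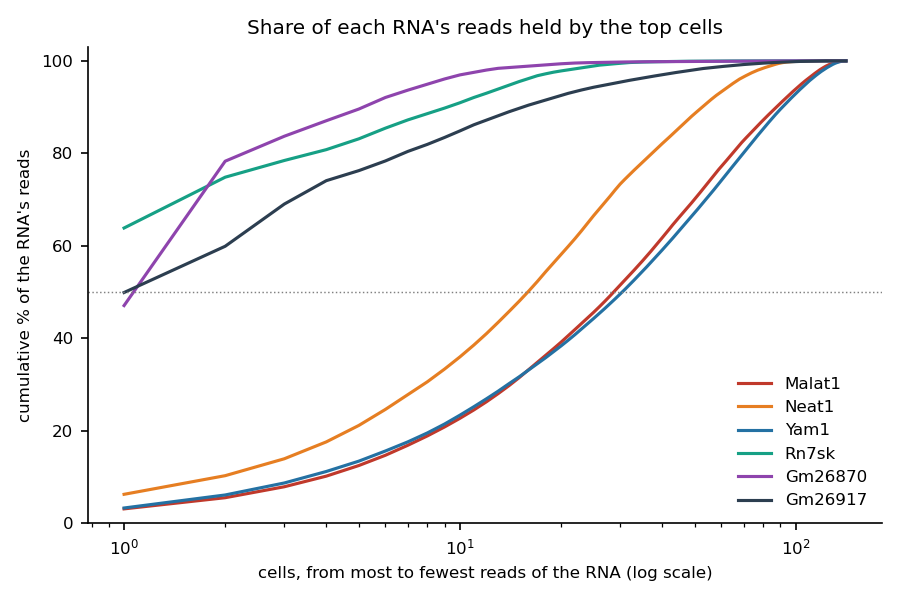
Cumulative percentage of each RNA's reads (y axis) over the cells ordered from the most to the fewest reads of that RNA (x axis, log scale), 1 line per RNA, with the dotted line at 50%. The lines of *Rn7sk*, *Gm26870* and *Gm26917* pass the dotted line within 2 cells, and those of *Malat1*, *Neat1* and *Yam1* between 16 and 31 cells.

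*Malat1* was highest in the type 1 class. The gene is annotated at chr19:5795690-5802672 on the minus strand of GRCm38 as a lincRNA whose longest transcript has 6983 bases in 1 exon, and *Neat1* lies on the same strand at chr19:5824708-5845478 with a transcript of 20771 bases, separated from it by 22035 bases. Both transcripts hold stretches rich in A, the letters to which an oligo-dT primer pairs inside a transcript, and 1 stretch of each is shown for this reason. In *Malat1* the capitals mark its longest run of A, which starts at base 6674 of the transcript, 298 bases from the 3′ end. In *Neat1* they mark the 20 bases with the most A, 17 of them, which begin at base 11362. Runs of A of at least 12 bases are present in 5768 of 141767 annotated transcripts (4.07%). A part of the *Malat1* transcript between bases 280 and 732 also matched transcripts of 2168 other genes over at least 100 bases with at least 85% identity. The stretches shown are chr19:5795964-5796023 and chr19:5834078-5834137, both minus strand.
Malat1-201: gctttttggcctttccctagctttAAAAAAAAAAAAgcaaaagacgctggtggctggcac
Neat1-201: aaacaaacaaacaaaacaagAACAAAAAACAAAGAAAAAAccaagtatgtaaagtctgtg

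In the type 1 class *Malat1* ranged from 2148 to 88327 CPM per cell, with a median of 27738. The type 2 class ran from 357 to 85881 CPM with a median of 12715. The rest ran from 144 to 49965 CPM with a median of 8914. The classes overlapped, and 88.6% of pairs of a type 1 cell and a cell of the rest had the higher level in the type 1 cell. In summed reads *Malat1* stood at 31109 CPM (31047 to 31171) in the type 1 class, 16210 CPM (16134 to 16286) in the type 2 class and 9493 CPM (9459 to 9527) in the rest. The log2 ratio was 1.71 for type 1 against the rest, 0.94 for type 1 against type 2 and 0.77 for type 2 against the rest. The first of these is a 3.28-fold difference. The second is below 2-fold in the sums but past it by cell medians (1.13), below a mitochondrial share of 15% (1.03), without the cell with the most reads in each class (1.02) and in chip columns 1 to 10 (1.30). The third is past 2-fold with scran size factors (1.49) and in chip columns 11 to 20 (1.23). Other alternatives lowered both. Over all of them the second ran from 0.44 to 1.30 and the third from 0.26 to 1.49. Over the 7205 genes compared, the median log2 ratio of type 1 to type 2 was 0.64, and *Malat1* ranked 3318 from the top. Its ratio between these 2 classes was thus near the middle of all genes.

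A few cells had almost no *Malat1*. Below 1000 CPM were 0 type 1 cells, 1 type 2 cell and 4 cells of the rest. The lowest, in the group high in *Scgb1a1* (the secretoglobin of club cells), had 23 reads among 159916, and the next, high in ciliated markers, had 26 among 142003. These 2 cells were also the lowest in *Yam1*, at 131.3 and 119.7 CPM, and had mitochondrial shares of 3.26% and 4.07%. Within the rest the summed *Malat1* level ran from 8395 CPM in the cells high in ciliated markers to 12400 CPM in the 7 cells below the ciliated, *Scgb1a1* and basal limits.

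*Neat1* had the widest gap between the classes among the 3 broad RNAs. In the type 1 class it ranged from 0 to 13221 CPM with a median of 2465, in the type 2 class from 2.34 to 3868 CPM with a median of 195, and in the rest from 0 to 2822 CPM with a median of 28.4. At least 1000 CPM was reached by 48 of 64 type 1 cells, 5 of 27 type 2 cells and 7 of 50 cells of the rest. Type 1 cells were thus mostly high, and the type 1 cell was the higher in 88.3% of pairs with the rest and in 82.4% of pairs with type 2. Reads were found in 63 of 64 type 1, 27 of 27 type 2 and 42 of 50 rest cells, and after each cell was thinned to 90000 reads in 62, 25 and 31. In summed reads the levels were 3066 CPM (3046 to 3085), 442 CPM (430 to 455) and 352 CPM (345 to 358). The log2 ratio was 3.12 for type 1 against the rest (8.72-fold) and 2.79 for type 1 against type 2 (6.93-fold). Type 2 and the rest differed little in the sum (log2 ratio 0.33), but by 2.78 in the ratio of cell medians. In the rest, 1 cell high in ciliated markers held 21.6% of the reads, and the rest stood at 287 CPM without it.

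*Yam1* had the opposite order of alveolar classes. Per cell it ranged from 3376 to 95013 CPM in the type 1 class (median 13281), from 7393 to 102387 CPM in the type 2 class (median 35929) and from 120 to 85461 CPM in the rest (median 16042). The summed levels were 15975 CPM (15931 to 16020), 33263 CPM (33155 to 33372) and 20084 CPM (20034 to 20134). The log2 ratio of type 1 to type 2 was -1.06, and in 16.6% of pairs the type 1 cell was the higher. In cells below a mitochondrial share of 15% this ratio was -0.55, with halved class limits -0.73 and in chip columns 11 to 20 -0.97, all within 2-fold. The median mitochondrial share was 18.2% in the type 2 class and 11.9% in the type 1 class, and its part in the ratio was not tested. In the sums the log2 ratio to the rest was -0.33 for type 1 and 0.73 for type 2. The latter was 1.16 by cell medians and 1.495 with scran size factors. It was only 0.22 below a mitochondrial share of 15% and 0.29 with halved class limits. *Malat1* reads outnumbered *Yam1* reads in 56 of 64 type 1 cells, 6 of 27 type 2 cells and 16 of 50 cells of the rest, so the ratio of these RNAs within a cell also differed by class.

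**Figure D2:**
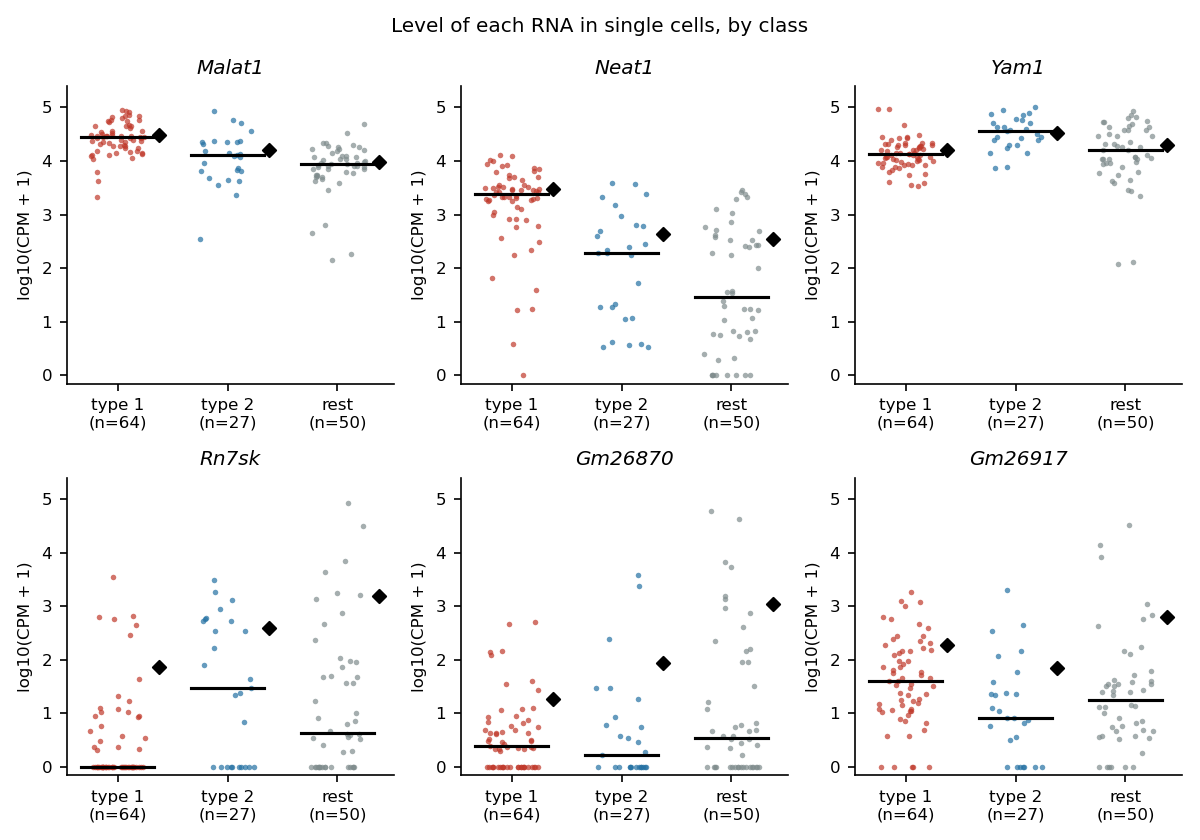
Level of each of the 6 RNAs in every cell as log10(CPM + 1) (y axis) for the type 1 class (64 cells), the type 2 class (27 cells) and the rest (50 cells), with 1 point per cell, a bar at the median of the cells and a diamond at the level of the summed reads. In *Malat1* and *Neat1* the type 1 median is the highest, in *Yam1* the type 2 median is, and in *Rn7sk*, *Gm26870* and *Gm26917* the diamonds lie far above the medians.

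*Rn7sk* is annotated at chr9:78175303-78175633 on the minus strand as a misc_RNA of 331 bases. Its first 241 bases are identical to those of *Gm24447*, a misc_RNA on another chromosome, and the first 300 bases of both are shown because reads of this stretch cannot be assigned to 1 of them. The capitals mark the shared bases.
Rn7sk-201: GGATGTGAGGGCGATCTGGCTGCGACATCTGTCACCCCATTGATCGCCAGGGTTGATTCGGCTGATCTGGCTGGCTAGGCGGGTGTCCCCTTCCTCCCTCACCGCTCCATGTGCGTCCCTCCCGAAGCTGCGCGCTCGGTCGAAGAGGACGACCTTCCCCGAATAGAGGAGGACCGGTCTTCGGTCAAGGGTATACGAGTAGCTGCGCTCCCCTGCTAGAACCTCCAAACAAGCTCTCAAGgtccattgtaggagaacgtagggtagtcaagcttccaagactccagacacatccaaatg
Gm24447-201: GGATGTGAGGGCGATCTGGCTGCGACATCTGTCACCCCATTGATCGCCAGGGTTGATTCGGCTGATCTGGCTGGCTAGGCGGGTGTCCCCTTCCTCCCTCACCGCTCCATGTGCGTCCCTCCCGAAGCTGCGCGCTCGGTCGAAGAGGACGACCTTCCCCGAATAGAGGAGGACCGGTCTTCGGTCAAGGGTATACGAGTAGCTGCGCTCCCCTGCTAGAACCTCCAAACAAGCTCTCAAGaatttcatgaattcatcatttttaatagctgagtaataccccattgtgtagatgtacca

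Transcripts of 18 other genes matched *Rn7sk* over at least 100 bases with at least 85% identity. Of these, 14 were counted here, and together they held 31733 reads beside the 54471 of *Rn7sk* itself, so its counts are uncertain by the way reads were divided. *Rn7sk* had reads in 25 of 64 type 1 cells, 17 of 27 type 2 cells and 34 of 50 cells of the rest, and in 12, 16 and 20 after thinning. The medians were 0, 29.2 and 3.39 CPM, and the highest cells had 3546, 3076 and 85604 CPM. Most cells therefore held few or no reads, while single cells held very many. In summed reads *Rn7sk* stood at 72.3 CPM (69.4 to 75.4) in the type 1 class, 384 CPM (373 to 396) in the type 2 class and 1540 CPM (1526 to 1553) in the rest. The log2 ratio was -4.41 for type 1 and -2.003 for type 2 against the rest, and -2.41 for type 1 against type 2. Summed with the 14 similar genes, the levels were 93.9, 511 and 2491 CPM.

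*Gm26870* lies at chr9:3000282-3038313 on the minus strand and overlaps 9 annotated genes of the plus strand. The 3 transcripts of the gene repeat themselves. Shifted by 234 bases, transcript Gm26870-202 was identical to itself at 95.9% of positions, and transcripts Gm26870-201 and Gm26870-203 at 81.5% and 78.3%. At a shift of 58 bases the identity of Gm26870-202 was 60.4%. The longest transcript has 1170 bases, of which 45.5% are A. Units of this length build the major satellite DNA of mouse pericentromeres. The first 2 units of Gm26870-203 are shown to make the repeat visible, and capitals mark the 17 positions at which they differ.
Gm26870-203 unit 1: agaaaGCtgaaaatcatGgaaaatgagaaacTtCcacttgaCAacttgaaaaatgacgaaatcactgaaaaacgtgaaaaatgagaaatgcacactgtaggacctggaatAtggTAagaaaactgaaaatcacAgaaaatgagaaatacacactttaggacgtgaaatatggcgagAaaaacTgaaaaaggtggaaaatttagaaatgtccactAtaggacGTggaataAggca
Gm26870-203 unit 2: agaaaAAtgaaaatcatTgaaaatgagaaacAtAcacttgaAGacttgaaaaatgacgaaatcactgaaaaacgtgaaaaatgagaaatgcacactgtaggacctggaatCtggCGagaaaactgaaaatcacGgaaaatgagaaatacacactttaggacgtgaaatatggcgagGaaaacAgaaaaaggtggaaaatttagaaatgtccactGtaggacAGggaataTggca

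**Figure D3:**
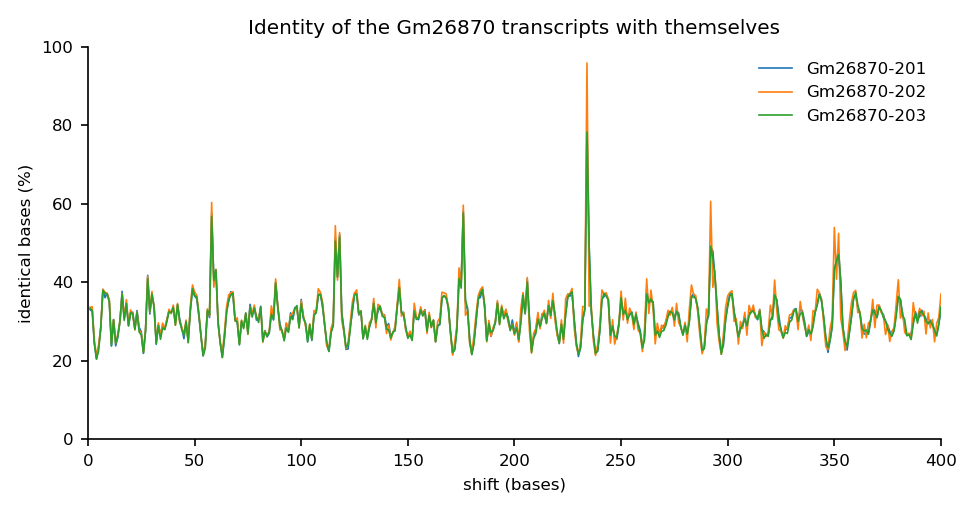
Percentage of identical bases (y axis) when each of the 3 *Gm26870* transcripts is compared with itself at a given shift in bases (x axis). The highest point of all 3 lines is at 234 bases, with 78.3% to 95.9% identity, and lower points recur about every 58 bases.

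Reads of *Gm26870* were found in 40 of 64 type 1, 14 of 27 type 2 and 32 of 50 rest cells, with medians of 1.42, 0.674 and 2.54 CPM. The highest cells had 503, 3731 and 60355 CPM. The medians lay within a few reads of 0 in every class. The summed levels were 17.6 CPM (16.2 to 19.2), 87.7 CPM (82.2 to 93.5) and 1118 CPM (1106 to 1130), with log2 ratios of -5.99 for type 1 against the rest, -3.67 for type 2 against the rest and -2.32 for type 1 against type 2. For type 1 against type 2 the medians had the reverse order (log2 ratio of medians 1.07). The reads of 8 similar genes of the opposite strand came to 278 beside 36383 of *Gm26870*. Whether the counting used strand is not given in the sources used here.

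*Gm26917* lies at chr17:39843013-39846341 on the plus strand. No annotated transcript of another gene matched it over at least 100 bases with at least 85% identity. Of the bases of its longest transcript, 3329 in all, 69.1% are G or C. *Gm26917* ends 11 bases before CT010467.1, which is annotated as an rRNA gene on the minus strand. Reads were found in 59 of 64 type 1 cells, 20 of 27 type 2 cells and 44 of 50 cells of the rest. The medians were 39.4, 7.34 and 17.1 CPM, and the highest cells had 1822, 2011 and 32216 CPM. By medians the type 1 class was thus the highest, and by the highest cell the rest. The summed levels were 186 CPM (181 to 191), 70.5 CPM (65.6 to 75.7) and 630 CPM (622 to 639). The log2 ratio was 1.40 for type 1 against type 2, -1.76 for type 1 against the rest and -3.16 for type 2 against the rest.

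The 3 cells with the highest summed CPM of the concentrated RNAs held most of the reads of these RNAs. All 3 were cells of the rest below the limits on ciliated markers, *Scgb1a1* and basal markers. They were at column 20 row 30, column 10 row 14 and column 6 row 35 of the chip, and held 77.2% of all *Rn7sk* reads, 83.7% of *Gm26870* reads and 69.04% of *Gm26917* reads. Of *Malat1*, *Neat1* and *Yam1* they held 1.64%, 1.58% and 2.15%. The cell at column 20 row 30 alone had 34788 reads of *Rn7sk*, 17134 of *Gm26870* and 13092 of *Gm26917*, together 15.998% of its reads. In the cell at column 10 row 14 the 3 RNAs made up 10.6% of reads, and in that at column 6 row 35 they made up 1.95%. Among the type 2 cells, the 1 at column 18 row 40 held 49.1% of the class's *Gm26870* reads and 51.9% of its *Gm26917* reads, and without it the class stood at 45.5 and 34.6 CPM. That cell was also the highest type 2 cell in *Malat1*. Outside the 3 cells the highest levels were 7047 CPM of *Rn7sk*, 5326 CPM of *Gm26870* and 2011 CPM of *Gm26917*.

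The mitochondrial shares of these cells were 21.2%, 22.97% and 32.3%, and protein-coding genes took 37.2%, 41.2% and 37.7% of their reads, against a median of 73.6% and a lowest value of 35.1% in all other cells. Their detected genes numbered 3305, 2906 and 2163. *tdTomato*, the sorted reporter, stood at 1120 CPM in the first, 5.31 CPM in the second and 0 in the third. The summed type 1 markers stood at 27.1, 127.5 and 31.1 CPM, below the 7091 CPM of the lowest type 1 cell. The summed club markers stood at 24.6, 21847 and 3128 CPM, and the second cell had 15938 CPM of *Scgb1a1*, under the limit of 20000 CPM. The summed fibroblast markers stood at 7.38, 0 and 0 CPM, far below the median of 1120 CPM in the 7 cells that include these 3. *Sftpc* stood at 1331, 170 and 259 CPM, under the limit of 8000 CPM. The part of these measures in the levels of the 3 RNAs was not tested.

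Without these cells the rest stood at 198 CPM of *Rn7sk*, 146 CPM of *Gm26870* and 51.5 CPM of *Gm26917*. The log2 ratio of type 1 to the rest was then -1.45 for *Rn7sk* and -3.05 for *Gm26870*, and that of *Gm26917* changed sign to 1.85. For type 2 against the rest the ratio of *Gm26870* was -0.73, and those of *Rn7sk* and *Gm26917* changed sign to 0.96 and 0.45. *Malat1* and *Neat1* had ratios of 1.79 and 3.34 for type 1 against the rest.

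Past 2-fold between type 1 and the rest were 2 higher members (*Malat1*, *Neat1*), as were 31.5% of the 7205 genes compared, and 3 lower members (*Rn7sk*, *Gm26870*, *Gm26917*), as were 27.1% of genes. Between type 2 and the rest 0 members were higher (18.7% of genes) and the same 3 were lower (42.3% of genes). Between type 1 and type 2 the higher members were *Neat1* and *Gm26917* (45.2% of genes) and the lower ones *Yam1*, *Rn7sk* and *Gm26870* (20.6% of genes). Differences of this size were thus common among all genes.

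Levels were next set against the mitochondrial share of each cell, using nonmitochondrial CPM, in which the reads are scaled by nonmitochondrial reads only, so that mitochondrial reads do not enter both sides. The correlations below are Spearman's rho over cells of 1 mouse that share a chip, vary in depth and are given with no p. Over all cells rho was 0.62 for *Yam1*, 0.41 for *Malat1*, 0.30 for *Gm26917*, 0.17 for *Neat1*, 0.14 for *Gm26870* and 0.03 for *Rn7sk*. The first 3 reached 0.3, as did 35 of the 7205 genes (0.486%). *Gm26917* was at the limit and fell below it with all reads as denominator (0.27), by Pearson r (0.27), without the 3 cells (0.27), in chip columns 11 to 20 (0.21) and with mitochondrial-like genes counted as mitochondrial (0.29). Of these 35, 14 were mitochondrial genes, 10 were nuclear genes near-identical to mitochondrial ones, and 3 were the members. A rho of -0.3 or less was found for 0 members and for 2.94% of genes. When the near-identical genes were counted as mitochondrial, rho was 0.63 for *Yam1* and 0.39 for *Malat1*.

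For *Yam1* rho was 0.76 in the type 2 class, 0.67 in the rest and 0.34 in the type 1 class. The type 1 value was 0.07 in cells below a share of 15%, 0.19 in chip columns 1 to 10, 0.26 with all reads as denominator and 0.28 without the 2 farthest cells. Over all cells its median was 10720 nonmitochondrial CPM in the 47 cells with the lowest mitochondrial share, 16254 in the next 47 and 43134 in the 47 with the highest. In the type 2 class the 11 cells below a share of 15% ran from 8144 to 37689 and the 16 cells at or above it from 39409 to 162246. These groups did not overlap, and *Yam1* was the 1 gene of 7205 (0.0139%) with this order and no overlap, a comparison made after its values were seen.

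For *Malat1* rho was 0.42 in the type 1 class, 0.25 in the type 2 class and 0.60 in the rest. In the same 3 sets of 47 cells its median was 12579, 25927 and 27036 nonmitochondrial CPM. In type 1 cells, parted by mitochondrial share into sets of 22, 21 and 21, it was 21693, 33185 and 43408. *Gm26917* had rho of 0.36, 0.12 and 0.44 in the same 3 classes, and its type 1 medians were 12.7, 57.2 and 85.4. In the type 1 class *Malat1*, *Yam1* and *Gm26917* reached 0.3 with 0.583% of genes. In the type 1 class 0 members and 4.22% of genes had a rho of -0.3 or less.

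For *Neat1* rho was 0.02 in the type 1 class, where the medians of the 3 sets were 2671, 3175 and 2971 nonmitochondrial CPM. Its rho was 0.25 in the type 2 class and 0.34 in the rest. *Rn7sk* stayed between -0.19 and 0.09 in the 3 classes. *Gm26870* had rho of -0.13 in the type 1 class and 0.49 in the rest.

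**Figure D4:**
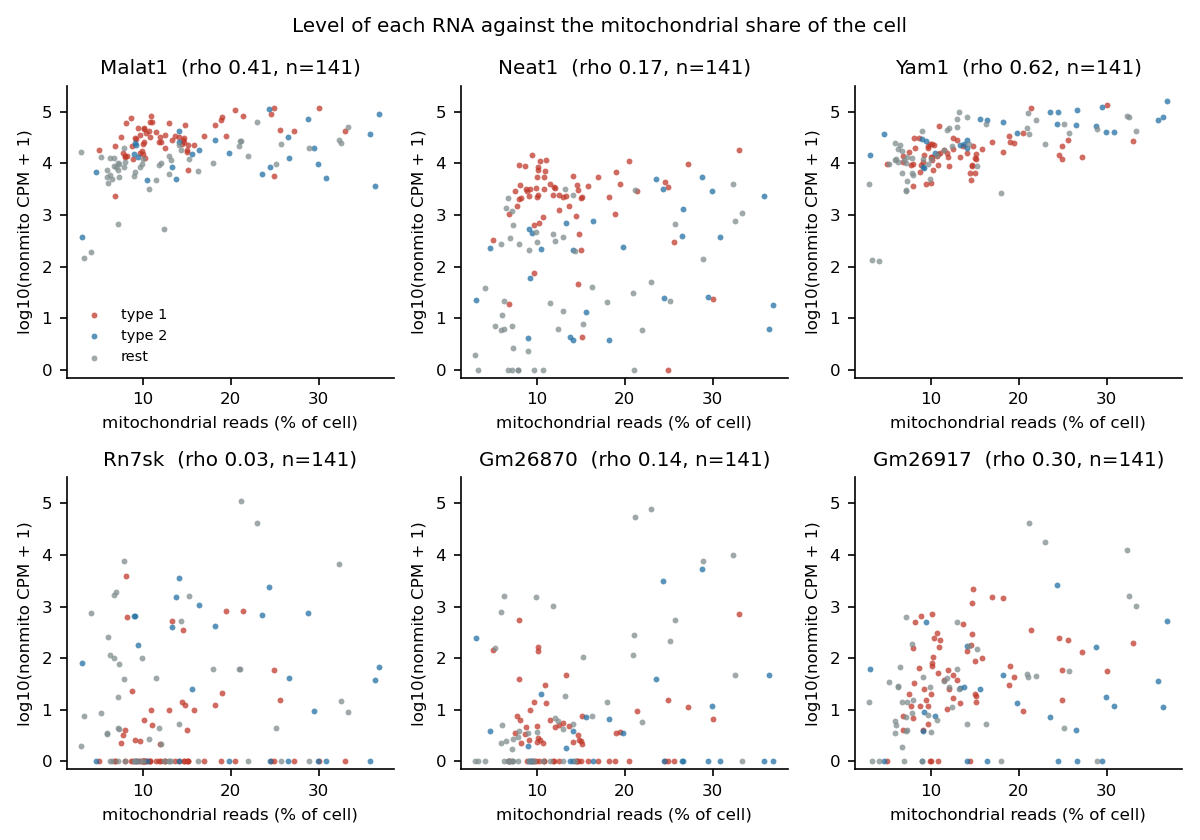
Level of each RNA as log10(nonmitochondrial CPM + 1) (y axis) against the percentage of a cell's reads on mitochondrial genes (x axis), with 1 point per cell coloured by class and rho over all cells above each panel. The points of *Yam1* climb from left to right (rho 0.62), those of *Malat1* less so (0.41), and those of *Rn7sk* show no slope (0.03).

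Type 1 cells split at the study's limit of 15% showed smaller differences. Summed *Malat1* was 31699 nonmitochondrial CPM in 45 cells below the limit and 48572 in 19 cells at or above it (log2 ratio 0.62), and *Yam1* was 15714 and 26769 (0.77). *Neat1* was 3487 and 3615 (0.05). *Rn7sk*, *Gm26870* and *Gm26917* had log2 ratios of 0.92, 0.26 and 0.06, and single cells set these values. Without the cell with the most reads on each side they were 0.16, -2.37 and -0.12, and in chip columns 11 to 20 *Rn7sk* was at 6.40. Past 2-fold were 0 members, whereas 19.9% of genes were that much higher and 41.7% that much lower.

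The number of genes detected in a cell had a rho of -0.54 with the mitochondrial share and of 0.69 with total reads, so these measures moved together. With detected genes, rho over all cells was -0.37 for *Yam1*, -0.29 for *Malat1*, -0.19 for *Neat1*, -0.11 for *Gm26917*, -0.04 for *Gm26870* and 0.03 for *Rn7sk*. Only *Yam1* reached -0.3, as did 0.222% of genes, while 11% of genes and 0 members reached 0.3. A gene with reads in only some cells itself enters the number of detected genes. *Malat1* and *Yam1* had reads in every cell and add the same to each. The share of all genes is therefore not a like reference for them, here or in the type 1 class. In the type 1 class *Malat1* reached -0.3 (rho -0.31, with 0.194% of genes), *Yam1* was at -0.23, and 15.9% of genes and 0 members reached 0.3. In the type 2 class *Yam1* was at -0.74 and *Malat1* at -0.05. Which of depth, detected genes and mitochondrial share the levels go with was not tested.

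**Figure D5:**
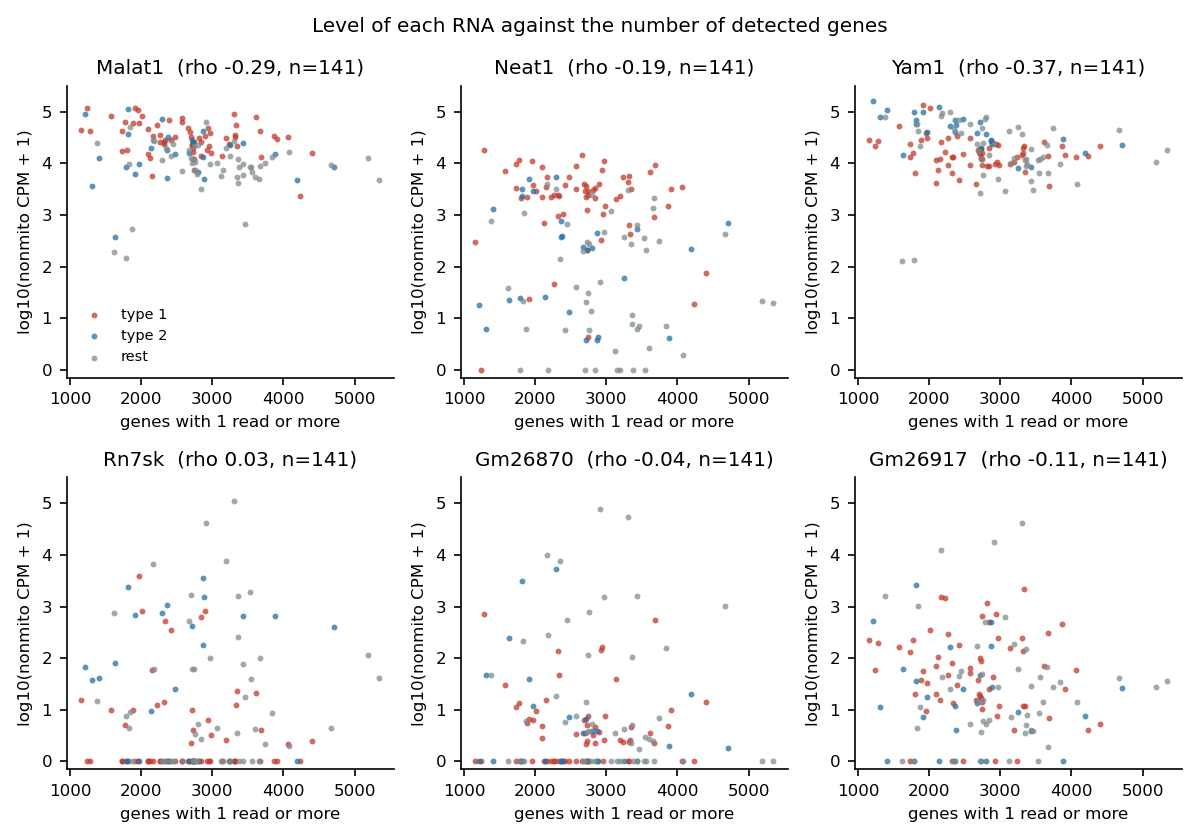
Level of each RNA as log10(nonmitochondrial CPM + 1) (y axis) against the number of genes with at least 1 read in the cell (x axis), with 1 point per cell coloured by class and rho over all cells above each panel. *Yam1* has the most negative value (-0.37), and *Rn7sk* and *Gm26870* are near 0.

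Among the members, *Malat1* and *Neat1* had a rho of 0.55 over all cells, *Malat1* and *Gm26917* 0.49, and *Malat1* and *Yam1* 0.22. Inside the type 1 class the order differed, with 0.60 for *Malat1* and *Yam1*, 0.37 for *Malat1* and *Gm26917* and 0.34 for *Malat1* and *Neat1*. *Rn7sk* and *Gm26870* had a rho of 0.14 over all cells although the same 3 cells held most of their reads.

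Over 7205 genes the ones most like *Malat1* over all cells were *Vwa1* (rho 0.66), an extracellular matrix gene, *Akap5* (0.57), a kinase anchor and type 1 marker, and *Vegfa* (0.56), the endothelial growth factor. Those most like *Neat1* were *Vegfa* (0.64), *Ager* (0.59) and *Akap5* (0.58). *Akap5*, *Vegfa* and *Ager* were themselves highest in the type 1 class, and inside that class their rho with *Neat1* was -0.03, 0.30 and 0.14. With *Malat1*, rho inside the type 1 class was 0.02 for *Akap5*, 0.25 for *Vegfa* and 0.57 for *Vwa1*. *Vwa1* had 929 reads in all and was highest in the rest, at 20.5 CPM against 7.75 in type 1 and 4.51 in type 2.

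Those most like *Yam1* were *Gm22710*, annotated as an snRNA (0.61), *Mir6236* (0.61) and *Rn18s-rs5* (0.57), and these had rho of 0.43, 0.43 and 0.33 with the mitochondrial share. Inside the type 1 class their rho with *Yam1* was 0.51, 0.47 and 0.13. Those most like *Rn7sk* were *Gm24447* (0.76), *Gm26315* (0.70) and *Gm24146* (0.60), all misc_RNA genes that share sequence with it. *Gm26870* had no value above 0.40, reached with *Gm23935*, followed by *Gm24187* (0.37) and *Lars2* (0.37). *Gm26917* was most like *Malat1* (0.49), *mt-Rnr1* (0.40), the small mitochondrial rRNA, and *Vwa1* (0.35).

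The proteins of the bodies in which these RNAs work were counted by lists, to be read against the 31.5% of all genes that were 2-fold or more higher and the 27.1% lower in type 1 than in the rest. These shares were 45.2% and 20.6% for type 1 against type 2, and 18.7% and 42.3% for type 2 against the rest. Of 13 paraspeckle protein genes, 2 were 2-fold or more higher in type 1 than in the rest (*Rbm14*, log2 ratio 1.06, and *Hnrnph1*, 1.31) and 2 lower (*Nudt21*, -1.42, and *Taf15*, -1.28), with a median log2 ratio of -0.10 against 0.11 over all genes. Reads of *Rbm14* were in 8 type 1 and 6 rest cells, and of *Hnrnph1* in 42 and 32. Those of *Nudt21* were in 9 and 12, and of *Taf15* in 9 and 9. *Sfpq* and *Nono*, needed for paraspeckles, had log2 ratios of -0.10 and 0.19. Between type 1 and type 2, *Nudt21* was higher (1.90), and *Tardbp* (-1.30) and *Ewsr1* (-1.34) were lower. Between type 2 and the rest, *Pspc1* (-1.86) and *Nudt21* (-3.32) were lower, with reads in 5 and 6 type 2 cells.

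Of 12 nuclear speckle genes, *Son*, a core speckle protein, was higher in type 1 than in the rest (1.20), and *Srsf7* (-1.41) and *Pnn* (-1.35) were lower, with a median of 0.18. Against type 2, type 1 was higher in *Son* (1.12), *Srrm1* (1.79), *Srsf11* (1.13) and *Pnn* (1.01) and lower in none, and between type 2 and the rest *Srrm1* (-1.52), *Srsf7* (-1.25) and *Pnn* (-2.36) were lower. *Pnn* had reads in 18 type 1, 4 type 2 and 17 rest cells. With the mitochondrial share *Nono* (-0.35) and *Srsf6* (-0.35), 1 gene of each list, had a rho of -0.3 or less, as did 2.94% of all genes. A rho of 0.3 or more was found for 0 genes of both lists and 0.486% of all genes.

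Of 7 genes of the 7SK particle, 6 had enough reads to be compared. *Ccnt2*, a cyclin of P-TEFb, was higher in type 1 than in the rest (1.48) and than in type 2 (1.39). *Larp7* and *Ccnt1* were lower in type 2 than in the rest (-2.54 and -2.09), and higher in type 1 than in type 2 (2.93 and 2.57). Reads of *Larp7* were found in 5 type 1, 5 type 2 and 8 rest cells, and of *Ccnt1* in 16, 5 and 16. The ratios of these genes thus rest on few cells. *Mepce*, the enzyme that caps 7SK, had 1 read in the type 2 class, 1320 reads in 14 type 1 cells and 2061 reads in 8 cells of the rest. Its log2 ratio was -9.49 for type 2 against the rest, with a counting interval of -14.79 to -7.01, and 8.85 for type 1 against type 2 (6.37 to 14.15). The type 2 class had the fewest cells and a median of 306356 reads, against 426602 in type 1 and 536054 in the rest.

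Of 37 other noncoding RNA genes listed, 21 were in the count table and 12 had enough reads to be compared. Higher in type 1 than in the rest were *Tug1* (1.13), *Dleu2* (1.80), *Mir22hg* (1.28) and *Rn18s-rs5* (1.07), and lower were *Gas5* (-1.61), *Snhg8* (-2.77), *Firre* (-1.61) and *Rpph1* (-7.08). The median was 0.25. Reads of *Tug1* were in 14 type 1 and 12 rest cells, of *Dleu2* in 24 and 13, and of *Mir22hg* in 7 and 7. Those of *Rn18s-rs5* were in 54 and 45, of *Gas5* in 15 and 26, and of *Snhg8* in 5 and 9. Those of *Firre* were in 6 and 9 and of *Rpph1* in 6 and 10, with *Rpph1* at 0.193 CPM in type 1. Between type 2 and the rest 2 were higher (18.7% of all genes) and 8 lower (42.3% of all genes), with a median of -1.47 against -0.53 over all genes, and between type 1 and type 2 4 were higher and 3 lower (45.2% and 20.6% of all genes). *Rn18s-rs5* was the only one of the 12 with a rho of 0.3 or more with the mitochondrial share (0.33), against 0.486% of all genes. *Kcnq1ot1*, another nuclear long RNA, had a rho of -0.08 and a log2 ratio of -0.60 between type 1 and the rest.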

How the data were processed

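The deposited values are unnormalized counts of whole reads, 1 column per cell, made by the authors with Trim Galore, HISAT2 (build GRCm38) and featureCounts. No molecular identifiers are stated, so PCR copies are counted as reads. All cells and 17136 genes were used, without a filter on cells, doublet calling or imputation. The study analyzed 92 cells, with a mitochondrial share below 15% among its limits. In the deposited counts 92 cells lay below this share and 49 at or above it. The latter include the 3 cells with most reads of the concentrated RNAs and 16 type 2 cells. The 6 RNAs, the gene lists and the comparisons were chosen with earlier results of these data known. Classes, summed CPM, log2 ratios, exact Poisson intervals and Spearman's rho were computed in Python 3.11.15 with numpy 2.4.6, pandas 2.3.3 and scipy 1.17.1. The ratio and correlation steps were tested on simulated data. Shares of all genes refer to the 7205 genes with at least 10 CPM over all cells and reads in at least 14 cells. Genes named are the 6 RNAs, list genes past 2-fold in a class comparison, and for each RNA the 3 genes with the highest rho. *Kcnq1ot1*, *Sfpq*, *Nono* and *Srsf6* fall outside this rule and were named after their values were seen. A result of the paraspeckle list is not reported here. Positions and sequences were taken from GENCODE vM21 transcripts (GRCm38), in which 16112 genes (94.0%) matched by symbol, and blastn 2.17.0 compared transcripts. *Yam1* had no entry there. Alternatives changed the cells, the class limits, the denominator, the averaging, the depth and the size factors (scran 1.30.0 in R 4.3.3).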

Additional observations from a re-analysis of the deposited data

How the results depend on the processing

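No paired analysis was possible because the cells come from 1 mouse in 1 group, so counting error is the only error measured. Depth limits *Rn7sk*, *Gm26870* and *Gm26917*, of which 40, 62 and 55 cells hold only 1 to 10 reads. Of the recomputed counts of members, 73 stayed within 1.5 times their value and 21 did not. These counts take higher and lower members together. Below a mitochondrial share of 15%, type 1 against type 2 kept 5 members, but 4 higher and 1 lower, against 2 and 3. Single values were held to the counting interval for a ratio, 0.1 for rho and 1.5 times for a share of genes. By this 280 stayed, 274 moved and 10 changed sign. For type 1 against the rest, 5 members were past 2-fold and 3 by cell medians. For type 2 against the rest the 3 became 5 by cell medians, 6 with scran size factors and 0 without the 3 cells described above, which were left out after seeing the data. For type 1 cells split at a mitochondrial share of 15%, the 0 became 1 with class limits doubled, by the mean of cells, without the cell with the most reads, and in either range of chip columns (1 to 10 or 11 to 20), and 3 with scran size factors. With the mitochondrial share over all cells, 3 members reached a rho of 0.3, and 2 to 4 under the alternatives. In type 1 cells, 3 members reached a rho of 0.3, and 1 in chip columns 1 to 10. With detected genes over all cells, 1 member passed, 0 by Pearson r or below a mitochondrial share of 15%, and 2 at 90000 reads or 30000 nonmitochondrial reads. In type 1 cells 1 passed, 0 with all reads as denominator, below a share of 15%, without the 2 farthest cells or in chip columns 11 to 20, and 2 at 90000 reads or in chip columns 1 to 10. The *Gm26917* ratio of type 1 to the rest (log2 -1.76) was 2.41 in cells below 15%, 1.21 by medians and 1.85 without the 3 cells. For type 2 against the rest *Rn7sk* was 1.39, 3.11 and 0.96 in the same order, and *Gm26917* was 0.11 below 15% and 0.45 without the 3 cells. The *Gm26870* ratio of type 1 to type 2 was 1.05 below 15% and 1.07 by medians. The cause was not tested. Over all alternatives the log2 ratio of type 1 to the rest stayed between 1.35 and 2.02 for *Malat1* and between 2.79 and 6.44 for *Neat1*, that of type 1 to type 2 between -1.64 and -0.55 (below 15%) for *Yam1*, and rho with the mitochondrial share over all cells between 0.36 and 0.65 for *Yam1* and between 0.33 and 0.46 for *Malat1*.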

Other observations

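The chip position of the cells was set beside the concentrated RNAs after the 3 cells with the most reads had been found. *Gm26870* had reads in 15 of 15 other cells that shared a chip column with 1 of the 3 cells, in 4 of 8 that shared a chip row, and in 55.7% of cells that shared neither. The medians were 5.17, 0.492 and 1.27 CPM. *Rn7sk* had reads in 11 of 15, 2 of 8 and 52.2% of these cells, and *Gm26917* in 13 of 15, 6 of 8 and 87.8%. The difference between these groups was not tested.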
